A study of Acorus calamus with 8 samples.

Results

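The transcripts described here encode terpene synthases and the enzymes that make the isoprenoid precursors from which terpenes, sterols, carotenoids and the chlorophyll side chain are built. They were found in RNA sequencing data of sweet flag (Acorus calamus), an aromatic wetland plant with a thick, oil-bearing rhizome. A feature, that is, an assembled transcript, was taken as a member where its SwissProt description held one of a fixed set of enzyme names (germacrene, linalool, terpene synthase, squalene, farnesyl, mevalonate and the names of the precursor enzymes), or where its Nr description held the words terpene synthase. This gave 57 members of 24636 features, 53 of them through SwissProt and 4 through Nr alone, and every one of the 57 best SwissProt matches was to a plant protein. The members range in length from 205 to 3519 bases and fall into 29 enzyme steps or products.

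The data comprised 8 libraries, 1 for each combination of tissue (rhizome or leaf), time (a month or 4 days) and cutting (cut or uncut). All explants grew on Murashige and Skoog medium with the auxins 2,4-D at 2 mg/l and NAA at 0.5 mg/l. In cut explants the height of the leaves had been trimmed, and in uncut explants it had not. The labels count the time from cutting for both kinds. There were no replicates, the labels do not say whether plants were pooled, so a p-value here compares 8 single libraries and reflects no more than how they scatter. The labels state oligo dT selection or ribosomal RNA depletion without saying which was used for a library.

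Plants make the common isoprenoid building blocks, isopentenyl and dimethylallyl diphosphate, by separate routes. The plastid route (also called the methylerythritol phosphate route) starts from pyruvate and glyceraldehyde 3-phosphate and feeds monoterpenes, diterpenes, carotenoids and the phytyl chain of chlorophyll, whereas the mevalonate route outside the plastid starts from acetyl-CoA and feeds mainly sterols and sesquiterpenes. Prenyl diphosphate synthases join the units into longer chains, and terpene synthases turn those chains into the volatile and non-volatile terpene skeletons.

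By role, 18 members belonged to the plastid route, 9 to the mevalonate route, 1 was the isomerase that interconverts both building blocks, 7 were prenyl diphosphate synthases, 4 were squalene enzymes, 12 were terpene synthases, and 6 had other roles (a geranylgeranyl reductase, the subunits of protein farnesyltransferase, farnesylcysteine lyase, heme O synthase and hydroxymethylglutaryl-CoA lyase). Of the 57 members, 41 had enough counts to be tested. The other 16 had at most 52 counts each over the 8 libraries and lengths of 205 to 837 bases, and 7 of the 12 terpene synthases were among them. Members named as contigs of the same cluster (CL720.Contig1, CL720.Contig2 and so on) are related assemblies between which reads can be divided, and they do not count as independent measurements.

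Library totals ranged from 6876377 to 12541185 counts, but ribosomal RNA took 74.9% to 97.8% of them. The members together held 576 (cut) and 745 (uncut) counts in rhizome at a month and 1832 (cut) and 137 (uncut) in rhizome at 4 days, against 1682 (cut) and 5052 (uncut) in leaf at a month and 3497 (cut) and 3366 (uncut) in leaf at 4 days. Uncut rhizome at 4 days was the shallowest library: 23 members were listed in it and 4 reached 10 counts. Levels are given as scaled CPM, the counts brought to a common library size with the trimmed mean of M values (TMM), and between different genes as scaled CPM per kilobase (kb). A count of 0 allows up to 3 counts, which is 1.41 scaled CPM in uncut rhizome at 4 days and from 0.102 to 0.507 in the other libraries. These limits cover counting error only.

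Most tested members of the plastid route were lower in rhizome than in leaf, whereas no member of the mevalonate route passed the test. The difference between the routes was not tested. Of the 41 tested members, 11 were lower in rhizome at an adjusted p below 0.05 and 0 were higher (edgeR quasi-likelihood test over 4 matched pairs, Benjamini-Hochberg adjustment over 11682 features). Across all features tested, 6.93% were lower in rhizome and 2.07% higher. The 11 comprised 8 of the 14 tested plastid route members, 2 of the 5 tested terpene synthases and a geranylgeranyl reductase, while 0 of the 9 mevalonate route members passed. All 11 were lower in 4 of 4 pairs. For 10 of them the measured rhizome values did not overlap the leaf values, and 7 of these remained so with rhizome counts of 0 raised to the 3-count limit. The test used the same pairs, so neither pattern is further support for the calls.

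The median log2 fold change, rhizome over leaf, was -1.75 over the 14 plastid route members and -2.62 over the 5 terpene synthases, against 0.14 over the 9 mevalonate route members, -0.94 over the 41 members and -0.14 over all features tested. All 14 tested plastid route members had a value below 0. Every rhizome library lay below every leaf library for 15 of the 41 members, 9 of them in the plastid route and 1 in the mevalonate route, and 0 members showed the opposite. Among all features tested, 9.58% showed the first pattern and 2.82% the second. For 4 of the 15 members (CL535.Contig2, Unigene474, Unigene6566 and Unigene7286) the pattern needs the 0 counts in uncut rhizome at 4 days to be read as 0. For Unigene6566 it also needs this of the 0 counts in both rhizome libraries at a month. The 3-count limits there, 0.507 (cut) and 0.370 (uncut) scaled CPM, exceed its lowest leaf value of 0.272. With rhizome counts of 0 raised to the 3-count limit the pattern held for 11 members, 6 in the plastid route and 1 in the mevalonate route, against 6.01% of all features.

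**Figure D1:**
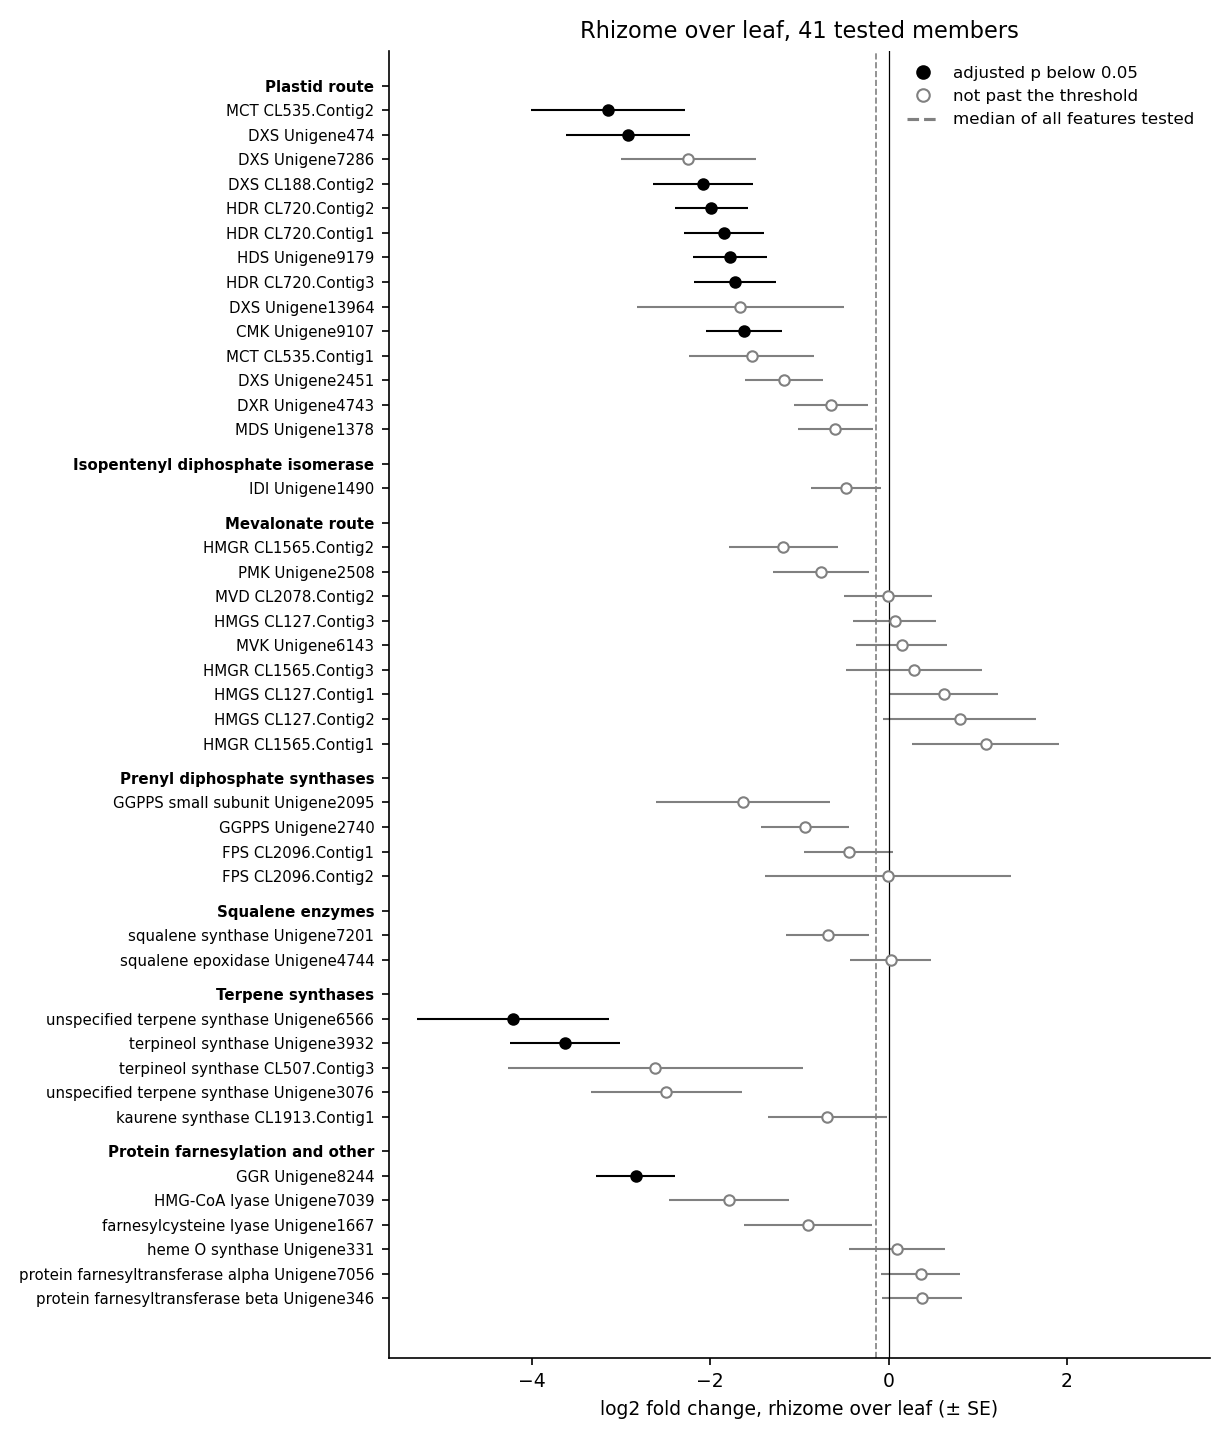
Log2 fold change of rhizome over leaf (x axis) for the 41 tested members, grouped by role, with the standard error of the edgeR fit over 4 pairs as bars. Filled points passed an adjusted p of 0.05. All 14 plastid route members lie left of 0, while the 9 mevalonate route members lie on both sides of it.

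The single pairs of rhizome and leaf were also read, with no test. Among members with at least 50 counts in either library of a pair, those 4-fold or more lower in rhizome numbered 1 of 12 in cut explants at a month, against 17.3% of all features with that many counts, and 7 of 25 in uncut explants at a month, against 18.1%. At 4 days they numbered 6 of 23 in cut explants, against 9.69%, and 9 of 18 in uncut explants, the pair with the shallowest library, against 17.8%. None was 4-fold higher in rhizome in any of the 4 pairs, against 5.56%, 3.67%, 2.44% and 2.53% of all features in the same order.

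Fewer members passed when a pair of libraries was left out, and calls over all features fell too, from 1051 of 11682. With the uncut 4-day pair omitted, which holds the shallowest library, 4 of 40 members passed, against 444 of 10911 features. With the cut month pair omitted 3 of 40 passed, against 630 of 11320 features. With the uncut month pair omitted 5 of 38 passed, against 601 of 10013 features. With the cut 4-day pair omitted 9 of 38 passed, against 992 of 10301 features. In each case all of the members that passed were lower in rhizome. Unigene3932 (a terpineol synthase), Unigene8244 (the geranylgeranyl reductase) and CL720.Contig2 (the last enzyme of the plastid route) passed in all 13 alternatives run.

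Markers of photosynthetic tissue moved with this difference. The 74 features of the photosystems, light-harvesting proteins, plastocyanin, oxygen-evolving proteins and the small subunit of Rubisco summed to 128 (cut) and 65.1 (uncut) scaled CPM in rhizome at a month and 208 (cut) and 172 (uncut) in rhizome at 4 days, against 1622 (cut) and 1247 (uncut) in leaf at a month and 2926 (cut) and 4493 (uncut) in leaf at 4 days. Between 14 and 34 of the 74 were at 0 in a rhizome library, against 1 to 6 in a leaf library, and 50 of the 63 tested were lower in rhizome with a median log2 fold change of -3.82. The leaf label thus matched its markers. No marker of rhizome tissue was examined. Fewer photosynthetic cells and less RNA of a gene per cell cannot be told apart in these bulk samples, and the part that the cell makeup plays in the members' difference was not tested.

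Within each library the summed level per kb of the plastid route was set against that of the mevalonate route, a ratio that the scaling between libraries does not touch. The plastid to mevalonate ratio was 1.35 (cut) and 1.01 (uncut) in rhizome at a month and 1.68 (cut) and 2.87 (uncut) in rhizome at 4 days, against 4.02 (cut) and 4.87 (uncut) in leaf at a month and 3.25 (cut) and 5.24 (uncut) in leaf at 4 days. The highest rhizome ratio was below the lowest leaf ratio. That highest rhizome ratio came from the shallowest library and rests on 53 plastid route and 15 mevalonate route counts.

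The summed level of the plastid route averaged 17.99 ± 3.74 scaled CPM per kb in rhizome and 51.1 ± 3.73 in leaf (SD, n = 4 libraries each). The mevalonate route averaged 12.1 ± 4.90 scaled CPM per kb in rhizome and 12.3 ± 3.68 in leaf (SD, n = 4 each). The plastid route sums did not overlap between tissues, and the mevalonate route sums did.

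**Figure D2:**
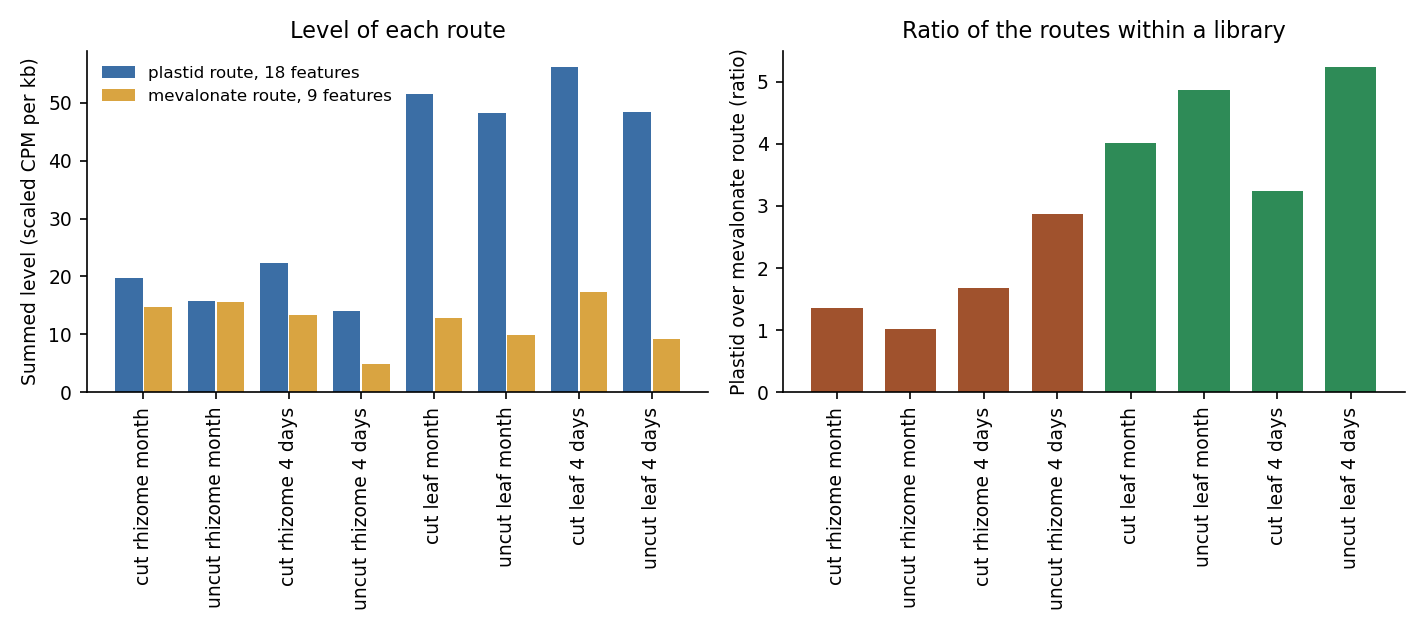
Left, summed level (scaled CPM per kb) of the 18 plastid route and 9 mevalonate route features in each of the 8 libraries; right, their ratio within a library. The rhizome ratios run from 1.01 to 2.87 and the leaf ratios from 3.25 to 5.24.

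The plastid route has 7 steps, and for 5 of them (DXS, MCT, CMK, HDS and HDR) the summed level in every rhizome library was below that in every leaf library, with MCT at 0 counts in uncut rhizome at 4 days. The first step is DXS, 1-deoxy-D-xylulose 5-phosphate synthase, which joins pyruvate to glyceraldehyde 3-phosphate and is known as a control point of the route. Its 6 features summed to 5.92 (cut) and 2.08 (uncut) scaled CPM per kb in rhizome at a month and 2.72 (cut) and 0.653 (uncut) in rhizome at 4 days, against 12.7 (cut) and 7.44 (uncut) in leaf at a month and 11.3 (cut) and 8.76 (uncut) in leaf at 4 days. Cut explants had the higher DXS sum in all 4 pairs, by amounts that were not tested on the sum.

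CL188.Contig2 held the highest level per kb among the DXS features. It had 3.72 (cut) and 1.60 (uncut) scaled CPM in rhizome at a month and 1.62 (cut) and 0 (uncut) in rhizome at 4 days, against 12.5 (cut) and 2.72 (uncut) in leaf at a month and 10.6 (cut) and 4.92 (uncut) in leaf at 4 days. It was lower in rhizome in each pair, although the tissues overlapped, since cut rhizome at a month exceeded uncut leaf at a month. Its log2 fold change was -2.08 ± 0.56 (SE, edgeR adjusted p = 0.0302).

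Unigene474, another DXS, had 0.338 (cut) and 0.246 (uncut) scaled CPM in rhizome at a month and 0.405 (cut) and 0 (uncut) in rhizome at 4 days, against 1.81 (cut) and 1.23 (uncut) in leaf at a month and 3.90 (cut) and 2.09 (uncut) in leaf at 4 days. The rhizome values were all below the leaf values, though the 0 in uncut rhizome at 4 days allows a level above the lowest leaf value, and the log2 fold change was -2.92 ± 0.70 (edgeR adjusted p = 0.0164). The DXS features Unigene7286, for which the same limit holds, and Unigene2451, which did not overlap, missed the threshold, at -2.24 ± 0.75 (edgeR adjusted p = 0.0785) and -1.17 ± 0.44 (edgeR adjusted p = 0.111).

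The second step, DXR (1-deoxy-D-xylulose 5-phosphate reductoisomerase, Unigene4743), forms the methylerythritol phosphate that names the route. It had 3.88 (cut) and 4.31 (uncut) scaled CPM in rhizome at a month and 4.39 (cut) and 3.29 (uncut) in rhizome at 4 days, against 4.33 (cut) and 5.55 (uncut) in leaf at a month and 9.59 (cut) and 6.46 (uncut) in leaf at 4 days. The tissues overlapped and the difference did not pass, with a log2 fold change of -0.65 ± 0.42 (edgeR adjusted p = 0.378).

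The next steps attach a cytidine group (MCT), phosphorylate the product (CMK) and close it into a ring (MDS). For MCT, CL535.Contig2 had 0 (cut) and 0.123 (uncut) scaled CPM in rhizome at a month and 0.338 (cut) and 0 (uncut) in rhizome at 4 days, against 1.21 (cut) and 1.67 (uncut) in leaf at a month and 1.19 (cut) and 1.91 (uncut) in leaf at 4 days. The rhizome values were below the leaf values, but the 0 in uncut rhizome at 4 days allows a level within the leaf range. The log2 fold change of -3.14 ± 0.86 (edgeR adjusted p = 0.0333) was the lowest of the route. CL535.Contig1, the MCT feature with the highest level per kb, was at -1.54 ± 0.70 and did not pass (edgeR adjusted p = 0.195).

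CMK was Unigene9107, with 2.87 (cut) and 2.59 (uncut) scaled CPM in rhizome at a month and 3.38 (cut) and 1.41 (uncut) in rhizome at 4 days, against 9.16 (cut) and 8.07 (uncut) in leaf at a month and 7.21 (cut) and 7.44 (uncut) in leaf at 4 days. It was lower in all rhizome libraries, at -1.62 ± 0.43 (edgeR adjusted p = 0.0288). For MDS, Unigene1378 had 3.21 (cut) and 5.05 (uncut) scaled CPM in rhizome at a month and 6.62 (cut) and 9.87 (uncut) in rhizome at 4 days, against 8.35 (cut) and 7.21 (uncut) in leaf at a month and 11.0 (cut) and 8.36 (uncut) in leaf at 4 days. Here uncut rhizome at 4 days lay within the leaf range, and the log2 fold change of -0.60 ± 0.42 did not pass (edgeR adjusted p = 0.427).

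The last steps, HDS and HDR, are iron-sulfur enzymes, and HDR releases both isopentenyl and dimethylallyl diphosphate. HDS was Unigene9179, the member with the highest total count, 1481. It had 5.74 (cut) and 4.07 (uncut) scaled CPM in rhizome at a month and 8.64 (cut) and 3.29 (uncut) in rhizome at 4 days, against 16.8 (cut) and 18.7 (uncut) in leaf at a month and 19.9 (cut) and 16.1 (uncut) in leaf at 4 days. The lowest leaf library stood clear of the highest rhizome library, and the log2 fold change was -1.78 ± 0.42 (edgeR adjusted p = 0.0151).

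HDR had the highest mean summed level per kb of any step in leaf: its 4 features summed to 4.87 ± 1.79 scaled CPM per kb in rhizome and 17.6 ± 1.66 in leaf (SD, n = 4 libraries each). CL720.Contig2 had 3.88 (cut) and 2.96 (uncut) scaled CPM in rhizome at a month and 4.59 (cut) and 2.35 (uncut) in rhizome at 4 days, against 15.3 (cut) and 13.4 (uncut) in leaf at a month and 14.6 (cut) and 10.8 (uncut) in leaf at 4 days. The tissues were far apart, with a log2 fold change of -1.99 ± 0.41 (edgeR adjusted p = 0.00758). The other contigs of the cluster that were called, CL720.Contig1 at -1.84 ± 0.45 (edgeR adjusted p = 0.0193) and CL720.Contig3 at -1.72 ± 0.46 (edgeR adjusted p = 0.0288), did not overlap between tissues either. With the contigs of each cluster summed before the test, 9 of 34 units holding members were lower in rhizome and 0 higher. Of all 9858 units tested in that fit, 795 were lower and 263 higher.

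**Figure D3:**
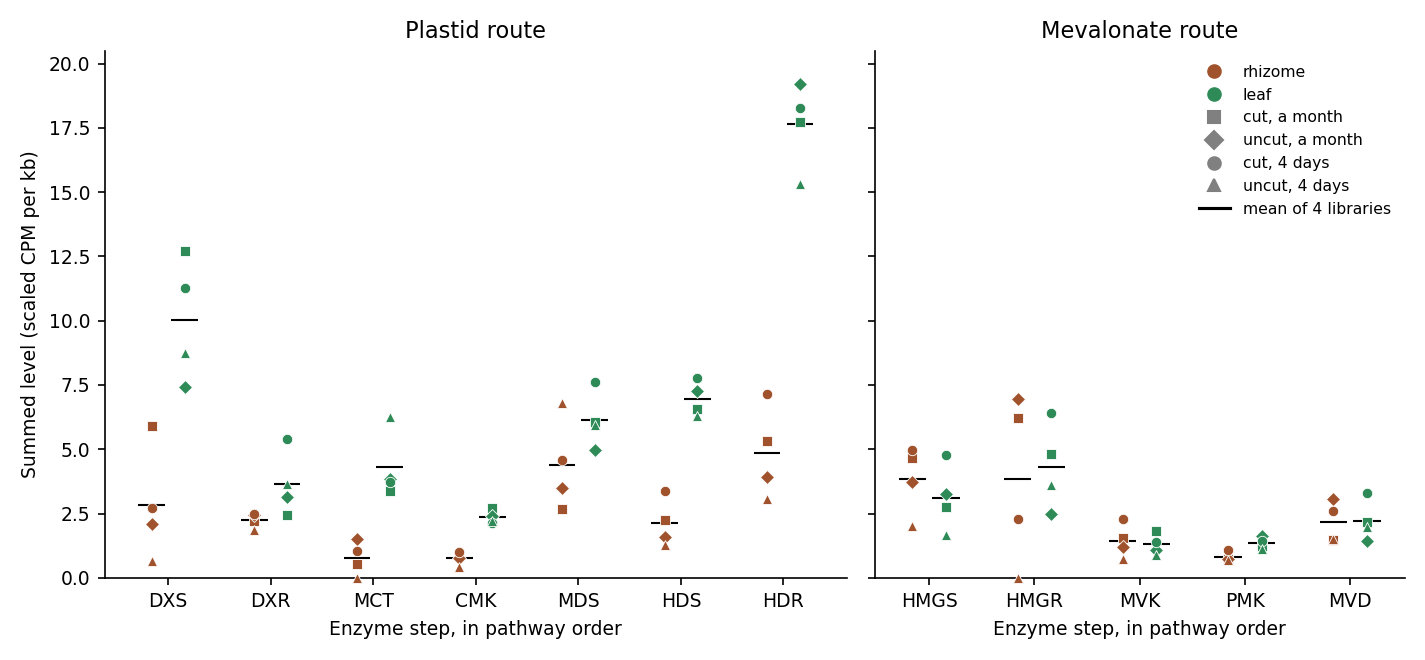
Summed level (y axis, scaled CPM per kb) of each enzyme step of the plastid route and of the mevalonate route, in pathway order, with 1 point for each library (rhizome to the left of leaf) and a black line for the mean of 4 libraries. The points of DXS, MCT, CMK, HDS and HDR do not overlap between tissues, with HDR sums of 3.07 to 7.17 in rhizome and 15.3 to 19.2 in leaf.

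The isomerase IDI (Unigene1490), which sets the balance of the building blocks, had 4.90 (cut) and 5.79 (uncut) scaled CPM in rhizome at a month and 5.81 (cut) and 6.11 (uncut) in rhizome at 4 days, against 7.55 (cut) and 9.02 (uncut) in leaf at a month and 6.74 (cut) and 8.30 (uncut) in leaf at 4 days. The ranges of the tissues did not overlap, but they lay close together, and the log2 fold change of -0.48 ± 0.39 did not pass (edgeR adjusted p = 0.508).

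In the mevalonate route, 6 of the 9 members had a log2 fold change above 0 and 3 below, from -1.18 to 1.09, and none passed, with 0 at an unadjusted p below 0.05. The entry enzyme is HMGS (hydroxymethylglutaryl-CoA synthase). Its feature with the highest level per kb, CL127.Contig3, had 4.22 (cut) and 2.59 (uncut) scaled CPM in rhizome at a month and 3.17 (cut) and 0.940 (uncut) in rhizome at 4 days, against 2.92 (cut) and 3.13 (uncut) in leaf at a month and 2.65 (cut) and 1.35 (uncut) in leaf at 4 days. Rhizome had both the highest and the lowest value, and the log2 fold change was 0.07 ± 0.47 (edgeR adjusted p = 0.949).

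HMGR (hydroxymethylglutaryl-CoA reductase), the known control point of this route, was represented by 3 contigs of 1 cluster whose levels were not ordered alike between the tissues. CL1565.Contig2, most like rice reductase 3, had 4.22 (cut) and 3.70 (uncut) scaled CPM in rhizome at a month and 2.09 (cut) and 0 (uncut) in rhizome at 4 days, against 7.05 (cut) and 2.59 (uncut) in leaf at a month and 9.85 (cut) and 3.20 (uncut) in leaf at 4 days. CL1565.Contig1 had 1.69 (cut) and 2.59 (uncut) scaled CPM in rhizome at a month and 0.675 (cut) and 0 (uncut) in rhizome at 4 days, against 0.503 (cut) and 0.340 (uncut) in leaf at a month and 0.595 (cut) and 0.799 (uncut) in leaf at 4 days. Both sets of tissues overlapped. The log2 fold change was -1.18 ± 0.61 for CL1565.Contig2 (edgeR adjusted p = 0.262) and 1.09 ± 0.82 for CL1565.Contig1 (edgeR adjusted p = 0.464), and the difference between the contigs was not tested. CL1565.Contig2 was called lower in rhizome in the alternatives with limma on FPKM, which put the median of all features lower as well.

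The later steps are mevalonate kinase, phosphomevalonate kinase and diphosphomevalonate decarboxylase. The log2 fold changes, rhizome over leaf, were 0.14 ± 0.51 for mevalonate kinase (Unigene6143, edgeR adjusted p = 0.899), -0.76 ± 0.54 for phosphomevalonate kinase (Unigene2508, edgeR adjusted p = 0.432) and -0.01 ± 0.49 for the decarboxylase (CL2078.Contig2, edgeR adjusted p = 0.995). Phosphomevalonate kinase was the member of this route whose tissues did not overlap, with 0.940 to 1.49 scaled CPM in rhizome and 1.54 to 2.25 in leaf.

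Among prenyl diphosphate synthases none of the 4 tested members passed between tissues. Farnesyl diphosphate synthase makes the precursor of sesquiterpenes and sterols. Its main feature, CL2096.Contig1, had 1.69 (cut) and 3.70 (uncut) scaled CPM in rhizome at a month and 1.89 (cut) and 2.82 (uncut) in rhizome at 4 days, against 3.32 (cut) and 3.44 (uncut) in leaf at a month and 4.96 (cut) and 1.72 (uncut) in leaf at 4 days. The ranges overlapped, at a log2 fold change of -0.45 ± 0.50 (edgeR adjusted p = 0.639).

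The plastid enzyme that makes geranylgeranyl diphosphate, for carotenoids, chlorophyll and diterpenes, was represented by a large and a small subunit. The large subunit, Unigene2740, had 1.18 to 1.85 scaled CPM in rhizome and 1.92 to 3.23 in leaf, ranges that did not overlap, at -0.94 ± 0.49 (edgeR adjusted p = 0.267). The small subunit, Unigene2095, whose snapdragon counterpart steers the enzyme toward shorter chains, had 0 to 0.493 scaled CPM in rhizome and 0.198 to 1.51 in leaf, at -1.63 ± 0.97 (edgeR adjusted p = 0.337).

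Squalene synthase and squalene epoxidase carry farnesyl diphosphate into sterols. Squalene synthase (Unigene7201) had 1.88 to 6.41 scaled CPM in rhizome and 5.64 to 10.1 in leaf, at -0.68 ± 0.47 (edgeR adjusted p = 0.409). The main squalene epoxidase feature, Unigene4744, had 14.02 (cut) and 9.36 (uncut) scaled CPM in rhizome at a month and 27.1 (cut) and 4.70 (uncut) in rhizome at 4 days, against 7.65 (cut) and 7.21 (uncut) in leaf at a month and 25.3 (cut) and 13.5 (uncut) in leaf at 4 days. Its log2 fold change between tissues was 0.02 ± 0.45 (edgeR adjusted p = 0.985), and the cut library was the higher in all 4 pairs.

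The terpene synthase members were mostly scarce: the 12 features together held 23 (cut) and 19 (uncut) counts in rhizome at a month and 85 (cut) and 1 (uncut) in rhizome at 4 days, against 66 (cut) and 496 (uncut) in leaf at a month and 404 (cut) and 298 (uncut) in leaf at 4 days. Another 11 features carry the terpene synthase family's InterPro entries but none of the rule's words. They held 16 (cut) and 4 (uncut) counts in rhizome at a month and 45 (cut) and 4 (uncut) in rhizome at 4 days, against 24 (cut) and 42 (uncut) in leaf at a month and 217 (cut) and 188 (uncut) in leaf at 4 days, and CL507.Contig2 held most of the leaf counts at 4 days. The SwissProt names give the closest described enzyme and not the product made in sweet flag. The highest level per kb belonged to Unigene3932, closest to a (-)-alpha-terpineol synthase, a monoterpene enzyme. It had 1.01 (cut) and 0.123 (uncut) scaled CPM in rhizome at a month and 1.22 (cut) and 0 (uncut) in rhizome at 4 days, against 4.03 (cut) and 4.29 (uncut) in leaf at a month and 15.2 (cut) and 7.87 (uncut) in leaf at 4 days. Every rhizome library was below every leaf library, and the log2 fold change was -3.62 ± 0.62 (edgeR adjusted p = 0.00191).

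Unigene6566, a probable terpene synthase 2 by SwissProt and closest to an alpha-humulene (sesquiterpene) synthase by Nr, had 0 (cut) and 0 (uncut) scaled CPM in rhizome at a month and 0.135 (cut) and 0 (uncut) in rhizome at 4 days, against 0.503 (cut) and 0.272 (uncut) in leaf at a month and 1.98 (cut) and 1.41 (uncut) in leaf at 4 days. Over the 4 libraries of a tissue that is 2 counts in rhizome and 66 in leaf. The pooled level in rhizome was 0.0692 of that in leaf, that is, 14.5-fold higher in leaf with an exact 95% counting interval of 3.85 to 122. This interval pools the 4 libraries of a tissue and covers counting error only, not the spread between libraries or the pairing. In the paired fit Unigene6566 was lower in rhizome (edgeR adjusted p = 0.0236).

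Unigene3076, another probable terpene synthase 2, had 0.169 (cut) and 0.123 (uncut) scaled CPM in rhizome at a month and 0.270 (cut) and 0.470 (uncut) in rhizome at 4 days, against 0.302 (cut) and 0.374 (uncut) in leaf at a month and 3.64 (cut) and 2.03 (uncut) in leaf at 4 days. The high values were those of leaf at 4 days. Neither its tissue difference of -2.49 ± 0.85 (edgeR adjusted p = 0.0814) nor its time difference, a month over 4 days, of -2.46 ± 0.81 (edgeR adjusted p = 0.0908) passed.

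The kaurene synthase feature CL1913.Contig1, an enzyme on the way to gibberellins, had 0 to 2.16 scaled CPM in rhizome and 0.805 to 2.31 in leaf, at -0.69 ± 0.66 (edgeR adjusted p = 0.582). The 5 germacrene synthase features, which would make sesquiterpene skeletons, were all too low to test. CL1474.Contig1, the one with the highest level per kb, had 6 (cut) and 9 (uncut) counts in rhizome at a month and 0 in both rhizome libraries at 4 days, against 2 (cut) and 0 (uncut) in leaf at a month and 1 (cut) and 3 (uncut) in leaf at 4 days. The related CL1474.Contig2 had 31 of its 52 counts in cut leaf at 4 days. The limonene synthase feature, Unigene12111, had 2 counts in all.

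**Figure D4:**
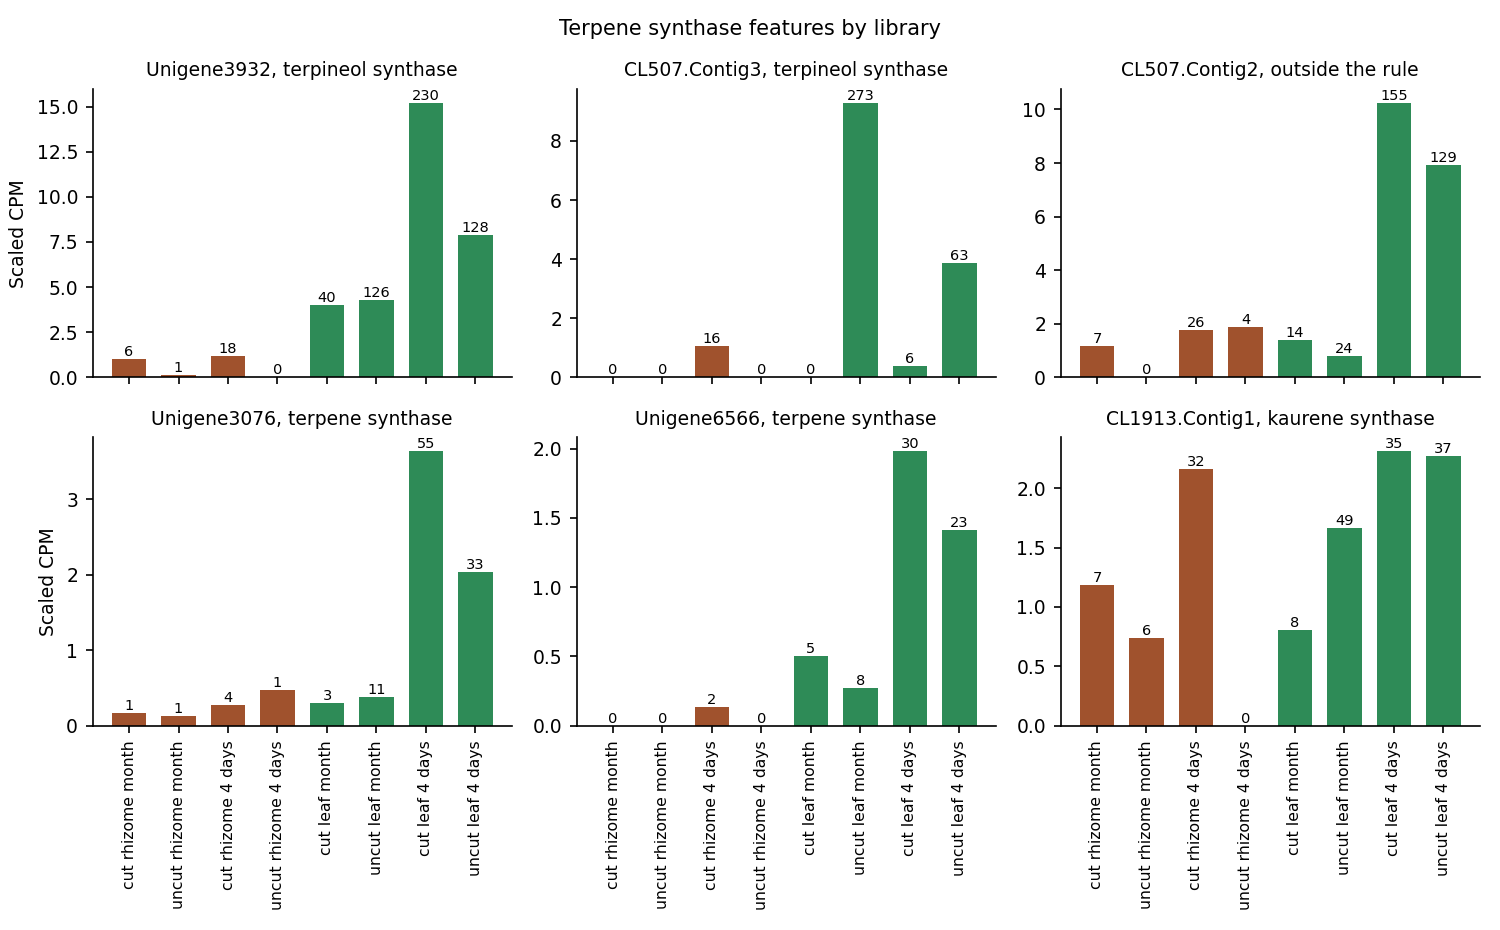
Scaled CPM (y axis of each panel, each with its own range) of 5 terpene synthase members and of CL507.Contig2, a contig outside the members that shares a cluster with CL507.Contig3, in the 8 libraries, with the count above each bar. CL507.Contig3 reaches 273 counts in uncut leaf at a month and 0 in cut leaf at a month.

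Of the 6 members with other roles, geranylgeranyl reductase (Unigene8244), which saturates the geranylgeranyl chain to the phytyl chain of chlorophyll and tocopherol, was the one called between tissues. It had 1.52 (cut) and 0.739 (uncut) scaled CPM in rhizome at a month and 1.55 (cut) and 3.76 (uncut) in rhizome at 4 days, against 7.35 (cut) and 6.98 (uncut) in leaf at a month and 10.3 (cut) and 33.6 (uncut) in leaf at 4 days. Uncut leaf at 4 days stood highest, and the tissues did not overlap. The log2 fold change was -2.83 ± 0.44 (edgeR adjusted p = 0.00102).

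Protein farnesyltransferase, which attaches the farnesyl chain to signalling proteins, leaned the other way without passing: the alpha subunit (Unigene7056) was at 0.36 ± 0.44 (edgeR adjusted p = 0.676) and the beta subunit (Unigene346) at 0.37 ± 0.45 (edgeR adjusted p = 0.666). Protoheme IX farnesyltransferase (Unigene331), which prepares heme for mitochondrial cytochrome oxidase, was at 0.09 ± 0.54 (edgeR adjusted p = 0.941). Farnesylcysteine lyase (Unigene1667), which degrades the product of prenylated protein turnover, was at -0.91 ± 0.72 (edgeR adjusted p = 0.491), and hydroxymethylglutaryl-CoA lyase (Unigene7039), an enzyme of leucine breakdown, at -1.79 ± 0.67 (edgeR adjusted p = 0.112).

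Enzymes that use the same precursors outside the members gave a mixed picture between tissues. Of 26 sterol synthesis features, 15 were tested, 1 was higher in rhizome and 0 lower, with a median log2 fold change of 0.50. That one was 7-dehydrocholesterol reductase (CL2054.Contig1), at 1.46 ± 0.43 (edgeR adjusted p = 0.0481) and higher in 4 of 4 pairs. Of 16 features that use prenyl diphosphates for other ends, 10 were tested, 0 were higher and 2 lower in rhizome: a solanesyl diphosphate synthase (Unigene5194, -5.98 ± 0.72, edgeR adjusted p = 0.000172), an enzyme of quinone side chains, and a phytoene synthase (Unigene9190, -2.02 ± 0.45, edgeR adjusted p = 0.0113), the entry enzyme of carotenoid synthesis.

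Over the 8 libraries, the tested features whose log2 CPM followed Unigene3932 most closely were a chloroplast glutamyl-tRNA reductase (Unigene5885, Pearson r 0.994), an oxygen-evolving enhancer protein 2 (CL961.Contig3, 0.992), Unigene6394, which has no SwissProt description (0.990), a chloroplast transketolase (CL1088.Contig2, 0.989) and a chloroplast 30S ribosomal protein S1 (Unigene8665, 0.987). These values describe 8 libraries that differ in tissue, time and depth together. Among the tested members, Unigene474, the DXS, was the closest at 0.971 and Unigene7056, the farnesyltransferase alpha subunit, the farthest at -0.78.

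No member passed between a month and 4 days in the edgeR test. Of the 41 tested, 0 passed in either direction with edgeR, against 8.76% of all features (7.81% higher and 0.95% lower at a month), and 4 had an unadjusted p below 0.05. DESeq2 called 1, Unigene3076, at -2.58 ± 0.89 (DESeq2 adjusted p = 0.0354). The median log2 fold change, a month over 4 days, was -0.09 over the members and 0.02 over all features.

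The member with the largest fitted rise was Unigene13964, a short DXS feature of 50 counts in all. It had 1.18 (cut) and 0 (uncut) scaled CPM in rhizome at a month and 1.51 (cut) and 0.851 (uncut) in leaf at a month, against 0 (cut) and 0 (uncut) in rhizome at 4 days and 0 (cut) and 0.184 (uncut) in leaf at 4 days. At 4 days it was thus seen in 1 of 4 libraries. Its log2 fold change of 4.13 ± 1.26 missed the threshold (edgeR adjusted p = 0.0715), and it passed with no filter on low counts and with limma on log2(FPKM + 1).

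Outside the members, both phytoene synthase features were higher at a month. Unigene9189 was at 4.08 ± 0.68 (edgeR adjusted p = 0.00272) and Unigene9190 at 2.29 ± 0.53 (edgeR adjusted p = 0.0174), each higher in 4 of 4 pairs. They were the 2 of 10 tested users of prenyl diphosphates that passed, and 0 of the 15 tested sterol synthesis features did. CL507.Contig2, a terpineol synthase-like contig outside the members, was lower at a month, at -2.68 ± 0.72 (edgeR adjusted p = 0.0375).

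Cutting gave no call among the members. Over the 4 cut and uncut pairs, 0 of 41 members passed with edgeR and 0 with DESeq2, against 1 of 11682 features (0.00856%) with edgeR, and 2 members had an unadjusted p below 0.05. Those were the DXS CL188.Contig2, at 1.70 ± 0.56 (edgeR adjusted p = 0.392), and the HMGR CL1565.Contig2, at 1.37 ± 0.58 (edgeR adjusted p = 0.521). Both had the higher level in the cut library in 4 of 4 pairs, in the values given above for each.

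The cutting effect at 4 days was read from the fit of cutting by time over all 8 libraries. There 6.99% of all features were called between cut and uncut (4.64% higher and 2.35% lower in cut). Of the 41 members, 0 were called and 5 had an unadjusted p below 0.05. The nearest to the threshold were squalene epoxidase, Unigene4744, at 1.62 ± 0.61 (edgeR adjusted p = 0.0844) and the HMGR CL1565.Contig2 at 2.01 ± 0.78 (edgeR adjusted p = 0.0971), both with higher levels in cut explants. In the sterol list, 2 of 15 were higher in cut explants at 4 days, a delta(24)-sterol reductase (CL278.Contig1, 2.11 ± 0.65, edgeR adjusted p = 0.0225) and a cycloartenol synthase (CL35.Contig2, 2.16 ± 0.69, edgeR adjusted p = 0.0301), and 1 was lower, the 7-dehydrocholesterol reductase contig CL2054.Contig2 (edgeR adjusted p = 0.00847). CL2054.Contig2 had 0 counts in both cut libraries at 4 days, against 33 in uncut leaf and 1 in uncut rhizome. CL2054.Contig1, of the same cluster, went the other way at 4 days. It had 5.55 (cut) and 2.89 (uncut) scaled CPM in leaf and 11.4 (cut) and 6.11 (uncut) in rhizome. How reads were split between these contigs was not tested. The 4-day effects rest on 2 pairs, and 1 library of them is the shallowest of the series.

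Read pair by pair, with no test, few members met a size rule of a 4-fold difference and 50 counts or more in whichever library was higher. In leaf at 4 days 24 members had 50 counts: 1 was higher in cut leaf, against 11.1% of all features with that many counts, and 1 was lower, against 8.44%. The higher one was the HMGS CL127.Contig1, with 57 counts in cut leaf and 7 in uncut leaf, a ratio of 8.76 after scaling (exact 95% counting interval 3.99 to 22.8). The lower one was CL507.Contig3, with 6 counts in cut leaf and 63 in uncut leaf, 9.76-fold lower (4.24 to 27.6).

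In rhizome at 4 days 10 members had 50 counts, 1 was higher in cut rhizome, against 16% of all features, and 0 were lower, against 2.29%. It was squalene epoxidase Unigene4744, with 401 counts in the cut library and 10 in the uncut one, a ratio of 5.76 after scaling (3.10 to 12.1). In leaf at a month 25 members had 50 counts, 1 was higher in cut leaf, against 1.5% of all features, and 1 lower, against 2.19%. The DXS CL188.Contig2 had 124 counts in cut and 80 in uncut leaf, a ratio of 4.58 after scaling (3.43 to 6.15), and the lower one was again CL507.Contig3. In rhizome at a month 2 members had 50 counts and 0 met the rule, against 3.83% of all features higher and 1.18% lower in cut rhizome. These intervals cover counting error only.

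CL507.Contig3, closest to an alpha-terpineol synthase, was the member called for a difference of cutting effects between the times. It had 0 counts in both rhizome libraries at a month and 16 (cut) and 0 (uncut) in rhizome at 4 days, against 0 (cut) and 273 (uncut) in leaf at a month and 6 (cut) and 63 (uncut) in leaf at 4 days. In scaled CPM that is 9.29 in uncut leaf at a month, 3.87 in uncut leaf at 4 days, 1.08 in cut rhizome at 4 days, 0.397 in cut leaf at 4 days and 0 elsewhere. Most of its counts thus came from uncut leaf. In leaf the cut library was the lower at both times, whereas in rhizome at 4 days it was the higher. With the 0 set to a floor of 3 counts, its level in cut leaf at a month was 30.8-fold lower than in uncut leaf, and by the lower end of the exact 95% counting interval, which also covers the 273 counts, it was at least 24.9-fold lower.

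The difference of the cutting effects, a month minus 4 days, was fitted at -7.66 ± 2.30 on the log2 scale (edgeR adjusted p = 0.0468), a value that depends on how the zeros are treated and is no bound. It was called in 1 of 41 members, against 1.96% of all features (0.942% below 0, as here, and 1.02% above). The cutting effect at a month was called as well (edgeR adjusted p = 0.00177). Among all features 0.291% were called at a month, 0.24% higher and 0.0514% lower in cut. For CL507.Contig3 that call rests on the leaf pair alone, since both rhizome libraries had 0 counts at a month. How far single leaf libraries differ without cutting cannot be told from it. The cutting effect at 4 days was not called, at -1.52 ± 0.96 (edgeR adjusted p = 0.402). The call on the difference was lost with DESeq2 size factors (edgeR adjusted p = 0.0533), with no filter on low counts, and without the leaf month, rhizome month or rhizome 4-day pair.

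Related contigs of the same cluster lay outside the members because their descriptions hold none of the rule's words. CL507.Contig2, closest to a (-)-alpha-terpineol synthase, had 7 (cut) and 0 (uncut) counts in rhizome at a month and 26 (cut) and 4 (uncut) in rhizome at 4 days, against 14 (cut) and 24 (uncut) in leaf at a month and 155 (cut) and 129 (uncut) in leaf at 4 days. Unlike CL507.Contig3 it had counts in cut leaf at both times. With the contigs of the cluster summed, the difference of the cutting effects was -0.88 ± 1.02 (edgeR adjusted p = 0.80) and was not called. That fit joins leaf and rhizome, so by itself it does not tell whether the pattern in leaf holds for the cluster. In leaf at a month CL507.Contig2 had 1.41 (cut) and 0.817 (uncut) scaled CPM, and CL507.Contig1 had 0.101 (cut) and 0 (uncut). With CL507.Contig3 added, the contigs together were lower in cut leaf at a month. At 4 days CL507.Contig2 had 10.2 (cut) and 7.93 (uncut) in leaf, and CL507.Contig1 had 0.0661 (cut) and 0.799 (uncut). There the contigs together were closer between the leaf libraries, and neither leaf sum was tested. Reads shared between the contigs could be assigned to either, and how they were split was not tested.

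The cutting effect was also compared between rhizome and leaf. For this difference 0 of 41 members and 0 of 11682 features (0%) passed with edgeR, and 1 member and 199 features had an unadjusted p below 0.05. That member was again CL507.Contig3, at 9.39 ± 3.04, rhizome minus leaf (edgeR unadjusted p = 0.00733). With DESeq2, 0 members and 1 feature passed.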

How the data were processed

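Each deposited table gives, per the file headers, an expected count, an FPKM value and a length for each assembled feature, with annotation text. The authors mapped reads with Bowtie2 and estimated the counts with RSEM, per the submitters' processing notes; versions are not given in the sources used here. FPKM as deposited by the authors served only in alternatives.

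Features missing from a table were taken as 0, and expected counts were rounded. The quasi-likelihood tests were run in R 4.3.3 with edgeR 4.0.16 (robust, filterByExpr, TMM), with a block for the other factors (3 residual degrees of freedom) or for differences of cutting effects (2). Adjusted p-values are Benjamini-Hochberg over 11682 features, called below 0.05. Each error is the standard error of a log2 change, unless given as SD. The scripts were tested on simulated data. There the tissue test recovered 27 of 100 genes changed 4-fold and 79 of 100 changed 16-fold, with 9 false calls. A member that was not called may thus still differ. Alternatives used DESeq2 1.42.0, limma 3.58.1, other filters and units, and omitted pairs.

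The members and lists were chosen with earlier results of these data known. Named members are those past the threshold, the highest per kb in each step, and those past the size rule in a cut and uncut pair; others named, such as those nearest to a threshold, were picked after their values were seen. The features have no genome positions, and no sequences were used here.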

Additional observations from a re-analysis of the deposited data

Results flagged for a closer look

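The cutting effect on CL507.Contig3, the alpha-terpineol synthase contig, differed between a month and 4 days by -7.66 on the log2 scale in the edgeR test of the difference itself. Its counts in leaf were 0 (cut) and 273 (uncut) at a month, against 6 (cut) and 63 (uncut) at 4 days. In rhizome they were 0 (cut) and 0 (uncut) at a month, against 16 (cut) and 0 (uncut) at 4 days, a pair in the opposite direction to leaf. Without that rhizome 4-day pair the difference was -6.12 (adjusted p = 0.114). Of 7 alternatives, 5 gave the same sign and no call, 1 reversed and 1 kept the call. The part that reads shared with CL507.Contig2 play in it was not tested.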

How the results depend on the processing

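The labels give no replicate numbers, so the pairs and blocks of the tests are matched conditions. The tissue call of 11 members became 21 with limma on log2(FPKM + 1) and 19 on log2(FPKM + 0.1), 9 to 12 under the other whole-set alternatives and 3 to 9 with a pair left out, all lower in rhizome. Over all features the tissue count of 1051 became 1608 with no filter, 2582 and 2270 with limma, and 444 to 992 with a pair left out. The split of higher and lower calls, 242 and 809, became 79 and 2503 with log2(FPKM + 1), 62 and 2208 with log2(FPKM + 0.1), and 429 and 757 with an offset for a length trend, chosen after seeing the data as were the sums over clusters and the omitted pairs for cutting by time. The median tissue change of all features, -0.14, became -0.73, -1.30 and 0.10 in the same order. For time, 1 member passed under DESeq2 (lower), no filter (higher) and limma on log2(FPKM + 1) (higher), and all features ran from 589 to 984 with a pair left out. For cutting, all features went from 1 to 77 with DESeq2, 113 with no filter, 3 and 4 with limma, 0 without ribosomal and organelle features and in the additive model, 19 with the length offset, 3 with clusters summed and 0 to 274 with a pair left out, with 0 members in each. For cutting by time, members went from 1 to 0 with DESeq2, DESeq2 size factors, no filter and clusters summed, and 0 to 1 with a pair left out; all features, 229, became 102 with DESeq2, 129 with no filter and 9 to 415 with a pair left out. DESeq2 gave no adjusted p for CL507.Contig3. With a pair left out its value ran from -15.84 without the leaf 4-day pair to a reversed 1.48 (adjusted p = 1) without the leaf month pair, which leaves 0 counts at a month. For cutting by tissue, all features went from 0 to 1 with DESeq2 and with no filter. An offset for the length each library gives was not run, since each feature has 1 length in all tables. With 1 library per combination and 137 member counts in uncut rhizome at 4 days, low members were not measurable there; other causes of these changes were not tested.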
